A study of Mus musculus with 38 samples.

Results

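Disseminated cells from the lung were compared with adenomas of the same MMTV-PyMT breast cancer model, using 6 arrays titled disseminated cells and 5 titled adenoma, 11 of the 38 arrays in the series. Membership followed the sample titles. Donors were 3-week-old female mice that carried MMTV-PyMT (polyoma middle T antigen driven by the MMTV promoter) together with actin-GFP. Their hyperplastic mammary tissue was placed in cleared No. 4 fat pads, the hosts being FVB/n females aged 3 weeks. Adenomas were outgrowths at 5 weeks. Disseminated cells were sorted from the lungs of hosts that had carried outgrowths for 18 weeks, with lungs of 3 to 6 mice pooled per sample. No treatment is given for either group, and both were collected as GFP-positive cells. The MMTV promoter acts mainly in mammary epithelium, and the actin promoter is active in most cell types. Both transgenes came with the donor tissue, and the paper describes the hosts as wild-type. For lung samples 300000 cells were sorted, and RNA went through 2 rounds of amplification. Sample RNA was labeled with Cy5 and a Universal mouse reference with Cy3, without dye swaps, so each value below is a log2 ratio of sample to that reference. Levels of different genes are not compared with each other, because each comes from its own probe.

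Cells that leave a mammary tumor reach the lung through the blood and lodge in its capillaries, in a tissue that also holds alveolar macrophages, neutrophils and monocytes. Mammary epithelial cells are recognized by keratins, tight junctions and, when differentiated, milk proteins. Macrophages and granulocytes are recognized by Fc receptors, lysosomal enzymes, C-type lectins and chemokines.

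The 2 groups shared 3 slides scanned on 1 day, each slide holding adenomas and disseminated cells. Adenomas always occupied array positions 1 and 2 and disseminated cells positions 3 and 4, so position and group cannot be told apart. The sample channel was well above background at 48.4 to 75.5% of spots for adenomas and 63.8 to 76.0% for disseminated cells, and 0 spots were saturated. The median correlation of an array with the others of its group was 0.863 to 0.914 for adenomas and 0.710 to 0.851 for disseminated cells, lowest for disseminated replicate 6. The labels number the samples but do not say that they came from separate cohorts, so p-values measure the spread between samples. Carcinomas and metastases entered the same fit, so standard errors and p-values also pool the spread within those groups. For the mean of the macrophage list, the standard deviation was 0.197 in adenomas and 0.557 in disseminated cells. It was 1.69 in carcinomas and 1.7 in metastases. Replicates 3 and 5 of the disseminated cells, both on slide 2, had the lowest epithelial levels. Results with 1 sample left out are given below for some genes and lists, not for all.

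A gene was called where limma gave an adjusted p under 0.05 and a log2 change of 1 or more in size. Of 28784 genes in 1 fit, 1338 were called higher in disseminated cells and 1676 lower, which is 4.65% and 5.82% of genes and 10.5% in all. At the 4-fold level 628 were higher and 307 lower, 2.18% and 1.07%, or 3.25% together. The groups did not overlap for 9.32% of genes, and the mean was higher in disseminated cells for 48.6%. The median log2 change over all genes was -0.00905. The direction was the same on all 3 slides for 1318 of the higher and 1625 of the lower genes, and with slide as a block 3414 genes were called (11.9%, of which 5.07% higher and 6.79% lower), 2931 of them among those above. The balance of the calls depended on the processing. Without scaling between arrays 1546 genes were higher and 1115 lower. The deposited ratios gave 1558 and 1189, although the methods of the study also name a quantile method between arrays. In these 2 settings 58.1% and 56.7% of calls were higher, against 44.4% with the quantile normalization used here. Why the deposited ratios differ was not tested. Without disseminated replicate 5 there were 2153 calls, 1066 higher and 1087 lower. A fit of adenomas and disseminated cells alone gave 2616 calls, 1183 higher and 1433 lower.

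**Figure D1:**
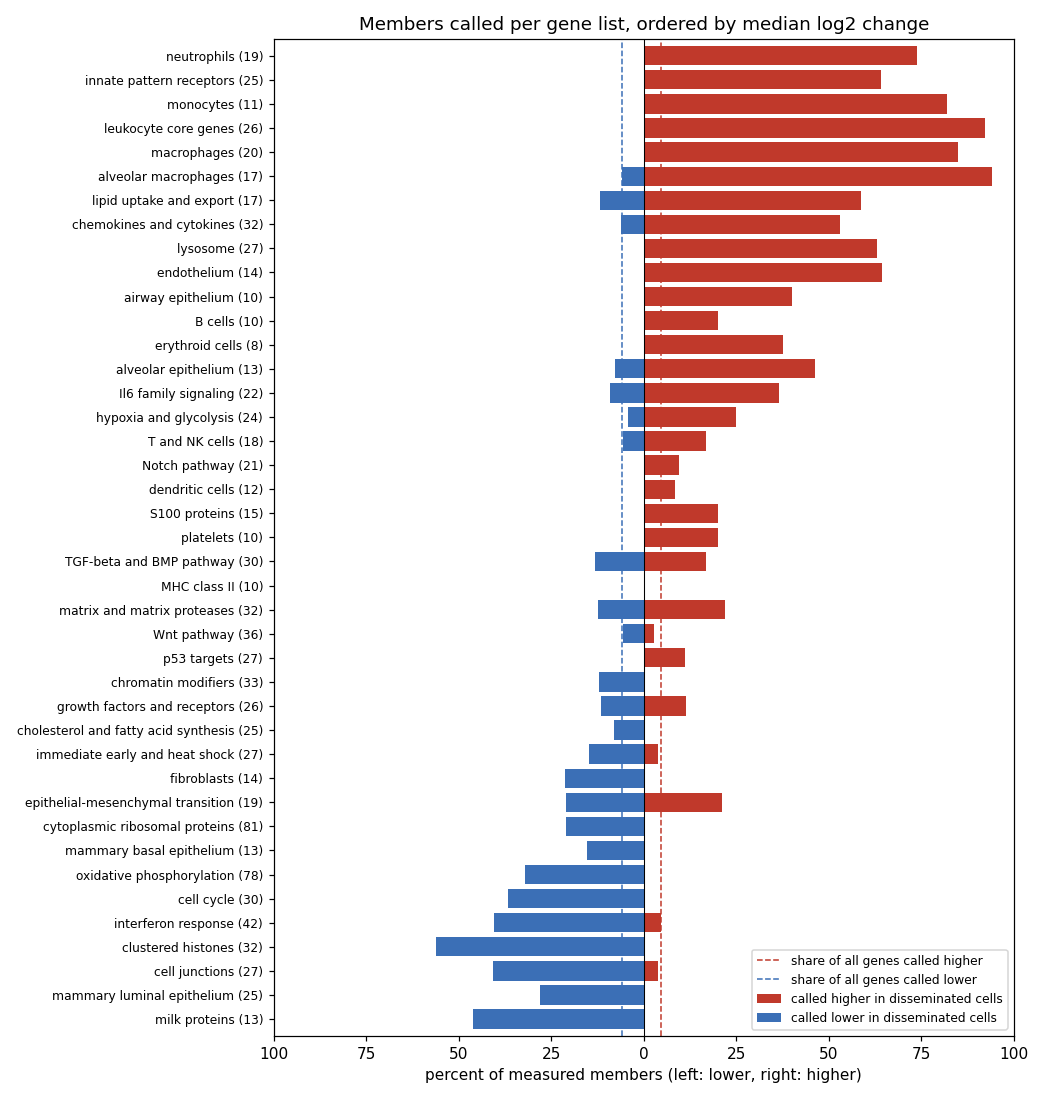
Share of the measured members of each gene list that were called higher (right) or lower (left) in disseminated cells than in adenoma, in percent. The leukocyte and macrophage lists reached the largest shares called higher, and histones, milk proteins, cell junctions and interferon response the largest shares called lower, with dashed lines at the 4.65% and 5.82% over all genes.

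Leukocyte genes rose in large shares. Of 26 core leukocyte genes, 24 were called higher and 0 lower, with a median log2 change of 3.55. Ptprc, which encodes the pan-leukocyte phosphatase CD45, had log2 ratios of -2.04, -3.31, -2.45, -3.25 and -2.65 in the 5 adenomas and ran from 0.75 to 4.10 with a median of 1.88 in disseminated cells. No disseminated sample came near an adenoma, and the change was 5.04 ± 1.03 (SE; limma adjusted p = 0.00289). Its 3 other probes rose by 0.62 to 2.40. Fcer1g, the signaling chain of Fc receptors, rose by 5.84 ± 1.11, and Spi1, the PU.1 factor of myeloid cells, by 2.25 ± 0.40. Itgam, the CD11b integrin chain, was not well above background in any adenoma on the probe used. On that probe it was at least 12.6-fold higher in disseminated cells (adjusted p = 0.00123), while another probe gave a log2 change of 2.03. For probes not well above background in any adenoma, the fold given is the lower of that of the ratios and that of the sample channel against its lowest clear signal. In sorted bulk samples, more cells of a type and more RNA per cell cannot be told apart.

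Of 20 macrophage genes, 17 were called higher and 0 lower, with a median change of 2.94, and 10 were called at an adjusted p below 0.01. Lyz2, the lysozyme of macrophages and granulocytes, had ratios of -0.39, -0.41, -1.17, 0.35 and 0.01 in adenomas and of 4.98 to 7.85 (median 6.44) in disseminated cells. The groups were separated by more than 4 log2 units, and the change was 6.67 ± 1.23 (adjusted p = 0.00163). Lyz1, a close paralog whose transcripts a probe may not distinguish, changed by 6.63. Csf1r, the receptor for macrophage colony-stimulating factor, rose by 4.79 ± 0.87 on the probe used, while its other probes gave 2.77 and 0.27. Adgre1, an adhesion receptor used as a macrophage marker, rose by 4.66 ± 1.04, with 0.90 on another probe. Cd68, a lysosomal glycoprotein, rose by 4.05 ± 0.77.

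Alveolar macrophage genes belong to the airspace of the lung. Of 17 measured, 16 were called higher and 1 lower, with a median change of 2.82. Ear10, an eosinophil-associated ribonuclease, was not well above background in any adenoma and had ratios of 5.91 to 7.18 in disseminated cells. It was at least 104-fold higher (adjusted p = 7.8e-09). Its paralogs Ear1 and Rnase2a changed by 7.70 and 7.79, and these near-identical sequences may share hybridization. Marco, a scavenger receptor, ran from 0.43 to 1.07 in adenomas and from 2.70 to 5.51 in disseminated cells, a rise of 3.66 ± 0.37. Siglecf, a lectin of alveolar macrophages and eosinophils, was not well above background in any adenoma and was at least 2.98-fold higher. Car4, carbonic anhydrase 4, rose by 3.05 ± 0.48. Chil3, a chitinase-like secretory protein, rose by 8.68 ± 1.02. The member that was lower was Plet1, at -1.62 ± 0.52, and this call was lost under 13 alternatives, including no normalization between arrays (-0.94). Another Plet1 probe gave -1.60. Plet1 ran from 9.36 to 10.33 in adenomas and from 7.115 to 9.05 in disseminated cells, so its ratio to the reference was high in both groups.

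**Figure D2:**
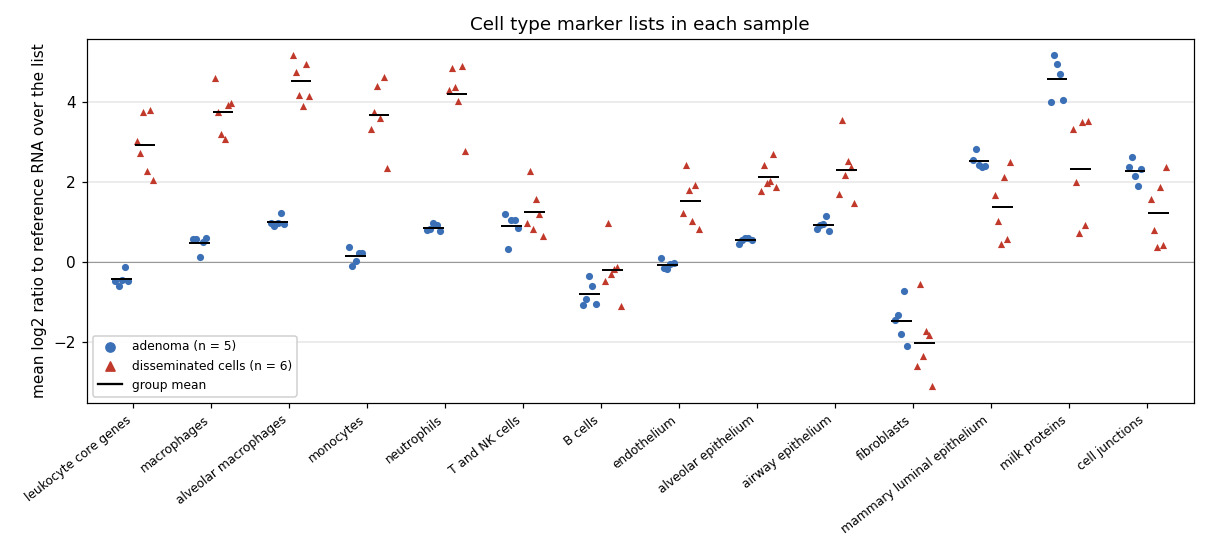
Mean log2 ratio of sample to reference over the members of 14 gene lists in each of the 5 adenomas and 6 samples of disseminated cells. The macrophage mean was 0.134 to 0.607 in adenomas and 3.06 to 4.58 in disseminated cells, whereas the luminal means of the groups overlapped.

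Monocyte and neutrophil genes rose as well. Of 11 monocyte genes 9 were called higher, with a median of 3.58, and of 19 neutrophil genes 14, with a median of 4.01. Csf3r, the receptor for granulocyte colony-stimulating factor, had ratios of 0.70, 0.33, 0.65, -0.27 and 0.60 in adenomas and 3.22 to 5.15 (median 4.93) in disseminated cells, a rise of 4.27 ± 0.56 (adjusted p = 0.000118). Retnlg, a resistin-like secreted protein of neutrophils, was not well above background in any adenoma and was at least 54.0-fold higher. Replicate 6 had the lowest values among disseminated cells for both genes, at 3.22 for Csf3r and 3.50 for Retnlg. Mmp8, the neutrophil collagenase, was at least 16.1-fold higher and Cxcr2, a receptor for neutrophil-attracting chemokines, at least 8.09-fold. S100a9, a calcium-binding protein of granulocytes, rose by 4.68 ± 0.85, whereas its partner S100a8 ran from 5.14 to 6.54 in adenomas and from 3.99 to 8.24 in disseminated cells and was not called (0.99 ± 0.67, adjusted p = 0.317). Adgre4, an adhesion receptor of monocytes and macrophages, was at least 25.1-fold higher, and Plac8, a small protein of myeloid cells, rose by 3.87 ± 0.84.

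**Figure D3:**
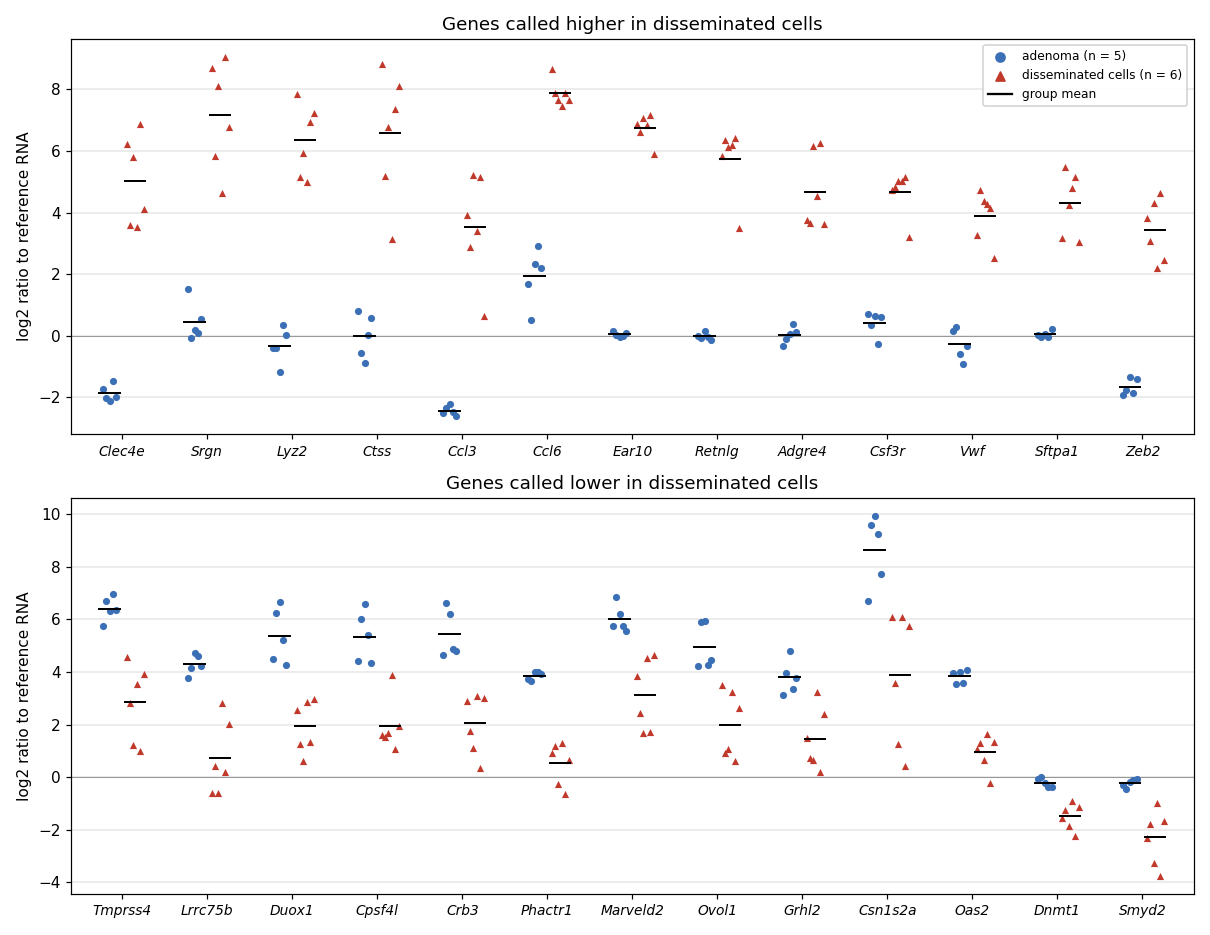
Log2 ratio of sample to reference of named genes that rose or fell, in each adenoma and each sample of disseminated cells. Ear10 lay between -0.03 and 0.15 in adenomas and between 5.91 and 7.18 in disseminated cells; Tmprss4 lay between 5.74 and 6.95 in adenomas and between 1.0 and 4.58 in disseminated cells.

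Pattern recognition receptors sense microbial and damaged-cell ligands. Of 25 measured, 16 were called higher and 0 lower, with a median of 3.90. Clec4e, the C-type lectin Mincle, whose probe lies at chr6:123319640-123319699 (mm7), had ratios of -1.73, -2.04, -2.12, -1.48 and -2.0 in adenomas and 3.53 to 6.87 (median 4.95) in disseminated cells. All disseminated samples exceeded all adenomas, and the change was 6.89 ± 1.24 (adjusted p = 0.00136). The neighboring lectin Clec4d rose by 7.39 ± 1.09. This value was the largest rise of both the neutrophil and the pattern receptor list, so lists can share members. Clec7a, which encodes the beta-glucan receptor dectin-1, rose by 5.94 ± 1.27, and Fpr2, a receptor for formylated peptides, by 6.69 ± 0.71. Another Fpr2 probe gave 2.32. Treml4, an Ig-domain receptor of macrophages, rose by 6.42 ± 0.80. Among 32 chemokines and cytokines, 17 were called higher and 2 lower (median 2.07), including Ccl3 at 5.98 ± 1.11, Ccl6 at 5.95 ± 0.72, Cxcl2 at 4.58 ± 0.70, Il1b at 4.03 ± 0.88 and Tnf at 2.79 ± 0.52. Il1f9, an interleukin-1 family cytokine, was at least 28.4-fold higher on the probe used, while another probe gave a log2 change of 3.74.

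The Clec4e promoter is printed because this gene was among the largest rises that were well above background on all 11 arrays, and because it holds 2 sites of a type bound by PU.1. In the RefSeq window of 250 bases before to 50 after its start, at chr6:123289822-123290121 on the minus strand of GRCm38.p6, capitals mark matches on either strand to GAGGAA (PU.1 type, reverse TTCCTC) and TTGCNNAA (C/EBP type, reverse TTNNGCAA).
Clec4e: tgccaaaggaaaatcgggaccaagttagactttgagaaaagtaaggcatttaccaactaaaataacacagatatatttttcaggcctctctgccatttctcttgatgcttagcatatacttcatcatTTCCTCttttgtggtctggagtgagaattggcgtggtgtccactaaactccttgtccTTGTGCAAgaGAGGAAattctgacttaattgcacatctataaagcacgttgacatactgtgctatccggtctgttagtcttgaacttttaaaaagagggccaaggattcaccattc
GAGGAA, on both strands, was found in 40.7% of 432 promoters of genes higher at the 4-fold level, in 26.1% of 176 promoters of genes lower at that level and in 28.3% of all 27025 windows. TTGCNNAA was found in 15.3, 6.25 and 10.8% of the same sets. These are descriptions of letters in a window and were not tested.

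Il6 signals through a receptor made of Il6ra and Il6st and activates Stat3, which induces Socs3 as a feedback inhibitor. Il6, with its probe at chr5:29052734-29052793 (mm7), had ratios of 1.66, 0.18, -1.11, 0.32 and -0.21 in adenomas and 3.15 to 7.07 (median 5.37) in disseminated cells. The lowest disseminated sample exceeded the highest adenoma, and the change was 4.87 ± 0.79 (29.3-fold, adjusted p = 0.000696). Replicates 4 and 6 had the 2 lowest values, at 3.44 and 3.15. The receptor gene Il6ra ran from 0.20 to 0.42 in adenomas and from -0.09 to 0.57 in disseminated cells. Its change was -0.004 ± 0.12 (adjusted p = 0.984), with a sign that turned under several settings. Il6st changed by 0.24 ± 0.23 (adjusted p = 0.497) and Stat3 by -0.18 ± 0.27 (adjusted p = 0.692). Socs3 rose by 2.10 ± 0.59 (adjusted p = 0.0170), and Prdm1, which encodes the transcriptional repressor Blimp-1, rose by 2.87 ± 0.59 (adjusted p = 0.00306). Of 22 genes of Il6 family signaling, 8 were called higher and 2 lower, with a median of 0.28.

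**Figure D4:**
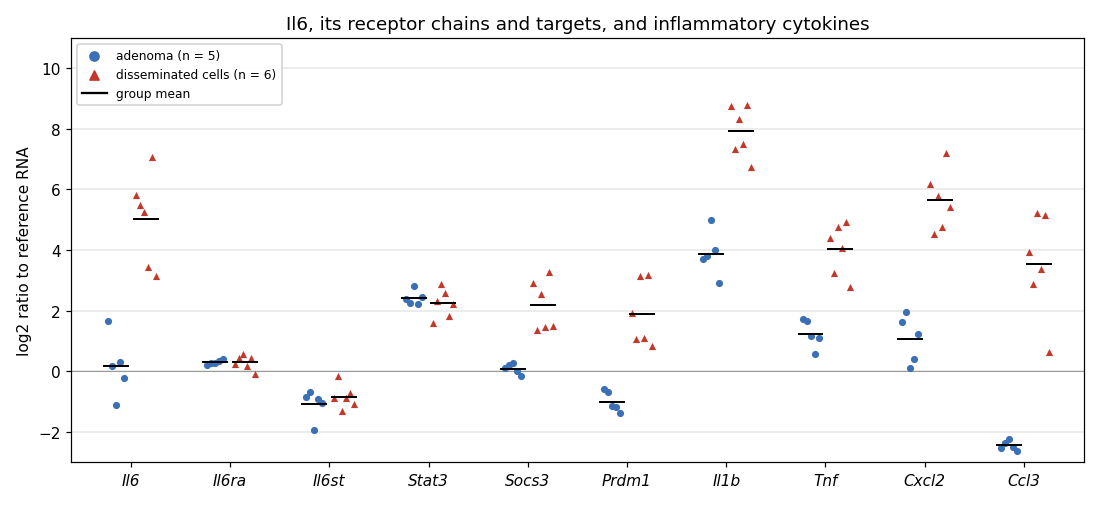
Log2 ratio of sample to reference of Il6, its receptor and response genes and 4 other cytokines in each adenoma and each sample of disseminated cells. Il6 ran from -1.11 to 1.66 in adenomas and from 3.15 to 7.07 in disseminated cells, whereas Il6ra ran from 0.20 to 0.42 and from -0.09 to 0.57, and black bars mark group means.

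The Il6 promoter is printed because the ligand rose while its receptor genes were not called. In the window at chr5:30012864-30013163 on the plus strand of GRCm38.p6, capitals mark matches on either strand to TGANTCA (AP-1 type), TTGCNNAA (C/EBP type) and the decamer of the NF-kB type.
Il6: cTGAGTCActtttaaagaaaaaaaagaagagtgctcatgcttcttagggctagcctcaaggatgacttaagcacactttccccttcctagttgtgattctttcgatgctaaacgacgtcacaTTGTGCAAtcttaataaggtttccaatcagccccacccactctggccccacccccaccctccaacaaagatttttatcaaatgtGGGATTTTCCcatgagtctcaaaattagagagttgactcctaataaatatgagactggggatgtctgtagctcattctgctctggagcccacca
The NF-kB decamer, on both strands, was found in 8 of 432 promoters higher at the 4-fold level (1.85%). It was found in 1 of 176 of those lower (0.568%) and in 0.385% of all windows. TGANTCA was found in 11.1, 8.52 and 7.93% of the same sets. These shares were not tested.

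Some markers of other lung cells rose. Of 14 endothelial genes, 9 were called higher (median 1.43). Cdh5, the cadherin of endothelial junctions, ran from 0.06 to 0.95 in adenomas and from 1.42 to 4.05 in disseminated cells. The rise was 2.43 ± 0.32 (adjusted p = 0.000149), with 0.64 on another probe. Vwf, von Willebrand factor, rose by 4.17 ± 0.45 and Ramp2, a receptor-modifying protein of endothelium, by 3.24 ± 0.54, and another Vwf probe gave 4.57 while a further one gave -0.11. Kdr, a receptor for vascular endothelial growth factor, rose by 1.46 ± 0.32, whereas its other probe gave 0.03. Pecam1 was not called (1.39 ± 0.56, adjusted p = 0.0849), but was without adenoma replicate 4 (1.89, adjusted p = 0.02) or disseminated replicate 4 (1.80). Of 13 alveolar epithelial genes, 6 were higher and 1 lower (median 0.36), and of 10 airway genes 4 were higher (median 1.06). The largest rise in the alveolar epithelial list was 6.63, the value of Lyz1, whose probe may not tell it from Lyz2 of macrophages. Sftpa1, a surfactant protein of alveolar type II cells, was not well above background in any adenoma and was at least 19.4-fold higher in disseminated cells, with 1.43 on its other probe. Sftpc, another surfactant protein, rose by 3.0 ± 0.57, but by 1.83 (adjusted p = 0.0963) with a normexp offset of 0 and 1.18 (adjusted p = 0.261) with the scanner's processed signals, which ended the call. Scgb1a1, the secretoglobin of club cells, rose by 2.47 ± 0.33, and Tppp3, a tubulin-binding protein of ciliated cells, by 3.69 ± 0.57. Ager, a marker of alveolar type I cells, was not called (0.36 ± 0.16, adjusted p = 0.116), and Aqp5, a water channel of alveolar type I and glandular cells, fell by 2.19 on the log2 scale, a call lost when any of 5 single samples was left out (adenoma replicate 2 or 3, disseminated replicate 1, 3 or 5, adjusted p = 0.0509 to 0.0664).

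Blood cell lists moved less. Of 8 erythroid genes 3 were higher (median 0.43), including Hba-a1, an alpha globin whose near-identical copy may share the probe, at 3.01 ± 0.34, and Alas2, the first enzyme of erythroid heme synthesis, at 1.81 ± 0.46, which was not called with a normexp offset of 0 (1.27, adjusted p = 0.062). Of 10 platelet genes 2 were higher (median 0.13), and both were chemokines, Pf4 at 5.31 ± 1.28 and Ppbp at 3.47 ± 0.41. Of 18 T and NK cell genes 3 were higher and 1 lower (median 0.25, with 0 lower under most alternatives), of 10 B cell genes 2 were higher (median 0.55) and of 12 dendritic cell genes 1 was higher (median 0.18). Among 14 fibroblast genes 0 were higher and 3 lower (median -0.48). For 10 MHC class II genes the median was 0.05 and 0 were called by limma (2 at an unadjusted p under 0.05) or by the equal-variance test, with a sign of the median that turned under the replicate block and without disseminated replicate 1.

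Lysosomal and lipid-handling genes rose in large shares. Of 27 lysosomal genes 17 were higher and 0 lower (median 1.76), with 9 at an adjusted p below 0.01, and of 17 genes of lipid uptake and export 10 were higher and 2 lower (median 2.48). Ctss, the cathepsin of antigen-presenting cells, ran from -0.89 to 0.80 in adenomas and from 3.15 to 8.81 in disseminated cells, a rise of 6.58 ± 1.62 (adjusted p = 0.00798). Lamp1, a protein of the lysosomal membrane, rose by 1.44 ± 0.35, and Ctsd, an aspartic protease of lysosomes, by 1.87 ± 0.49. Ctsk, a cathepsin that cleaves collagen, rose by 4.24 ± 0.70. Cd36, a scavenger receptor that takes up fatty acids, had values of -3.59 to -1.69 in adenomas and 1.16 to 3.80 in disseminated cells, a rise of 5.18 ± 0.70. Fabp4, a fatty acid-binding protein, rose by 4.44 ± 0.53 and Lpl, lipoprotein lipase, by 2.98 ± 0.53. Another Lpl probe gave 1.32. Srgn, the granule proteoglycan serglycin, rose by 6.73 ± 1.21. Among 25 genes of cholesterol and fatty acid synthesis 0 were higher and 2 lower (median -0.23).

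A part of the mammary epithelial genes was lower, with more spread between samples. Of 13 milk protein genes 6 were called lower and 0 higher (median -2.59), of 25 luminal genes 7 lower (median -1.39), of 27 junction genes 11 lower and 1 higher (median -1.39) and of 13 basal genes 2 lower (median -0.62). Without between-array normalization the counts called lower were 2, 1, 4 and 2. Without disseminated replicate 5 milk, luminal and junction genes had 3, 3 and 7 called lower. Luminal genes had 3 without adenoma replicate 3, 4 without adenoma replicate 2 or disseminated replicate 3 and 12 without disseminated replicate 6, and milk genes had 3 without adenoma replicate 2 or 4. Crb3, an apical polarity protein whose probe lies at chr17:55276994-55277053 (mm7), had ratios of 4.66, 6.62, 6.19, 4.89 and 4.78 in adenomas and 0.36 to 3.09 (median 2.33) in disseminated cells. The groups did not overlap, and the change was -3.39 ± 0.66 (adjusted p = 0.00219). Marveld2, a protein of tricellular junctions, had a change of -2.88 ± 0.69 and Grhl2, a transcription factor of epithelial cells, of -2.36 ± 0.58, although another Marveld2 probe gave -0.15 and the other Grhl2 probes -0.63 and -0.11. Ovol1, an epithelial zinc finger factor, changed by -2.96 ± 0.72 and Tmprss4, a membrane serine protease, by -3.56 ± 0.72. Without between-array normalization the calls of Crb3 (-2.06, adjusted p = 0.0712), Marveld2 (-1.54), Grhl2 (-1.13), Ovol1 (-1.62) and Tmprss4 (-2.18) were all lost.

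Csn1s2a, a casein, had ratios of 6.71, 9.60, 9.93, 9.23 and 7.73 in adenomas and 0.42 to 6.11 (median 4.66) in disseminated cells, a fall of 4.77 ± 1.29 on the log2 scale (adjusted p = 0.0138) that also lost its call without between-array normalization (-3.66, adjusted p = 0.0739) and with the scanner's processed signals (-3.14). Lalba, the alpha-lactalbumin of milk, fell by 2.59 on the log2 scale (adjusted p = 0.00599), while Csn2, beta-casein, was not called (-3.26 ± 1.5, adjusted p = 0.131). The keratins of luminal cells also spread widely. Krt8 was 3.66, 3.57, 2.45, 2.49 and 3.48 in adenomas and 1.55, 0.46, -1.65, 1.67, -0.98 and 4.22 in disseminated replicates 1 to 6. Replicate 6 lay above every adenoma and the other 5 below all of them, and the gene was not called (-2.25 ± 1.06, adjusted p = 0.141) unless replicate 6 was left out (-2.92, adjusted p = 0.0432). Epcam, an epithelial adhesion molecule, also peaked there, with 5.45 in replicate 6 against -0.46 to 1.89 in the others (change -0.96 ± 0.92, adjusted p = 0.492). Krt18, Gata3, Cdh1 and Ocln were not called, at -2.63, -1.44, -1.39 and -1.74 (adjusted p = 0.0584, 0.111, 0.0978 and 0.0671). All 4 were called without replicate 6, at -3.23, -1.93, -1.69 and -2.09. Krt18 was also called without between-array normalization (-2.82, adjusted p = 0.0302), with the deposited ratios, without dim probes and without disseminated replicate 4. Ocln was also called with a normexp offset of 0, the scanner's processed signals, the mean of its probes and without adenoma replicate 4.

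Several genes that fell stood outside the epithelial lists. Phactr1, a regulator of actin and phosphatase activity, changed by -3.33 ± 0.43, with -3.37 and 0.01 on its other probes. Duox1, which makes hydrogen peroxide at epithelial surfaces, changed by -3.44 ± 0.60, and Cpsf4l, related to a polyadenylation factor, by -3.40 ± 0.53. Lao1, an L-amino acid oxidase of milk, changed by -3.50 ± 0.84 and Lrrc75b by -3.59 ± 0.65, the former losing its call without between-array normalization (-2.35, adjusted p = 0.0907). Tmc5, a transmembrane channel-like protein, and Frmpd1 changed by -3.84 ± 0.61 and -3.63 ± 0.51. Gldc, the glycine decarboxylase of mitochondria, had ratios of 3.11, 5.22, 6.56, 5.11 and 3.62 in adenomas and -0.03 to 2.20 (median 0.80) in disseminated cells, with all adenomas above all disseminated samples and a change of -3.79 ± 0.61.

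The promoters of Crb3 and Gldc are printed because both genes fell without overlap and both windows hold the ZEB-type letters CAGGTG, whose reverse complement is CACCTG. The Crb3 window is chr17:57061951-57062250 on the plus strand and the Gldc window chr19:30175392-30175691 on the minus strand of GRCm38.p6. Capitals mark CAGGTG or CACCTG, and in Gldc also GAGGAA.
Crb3: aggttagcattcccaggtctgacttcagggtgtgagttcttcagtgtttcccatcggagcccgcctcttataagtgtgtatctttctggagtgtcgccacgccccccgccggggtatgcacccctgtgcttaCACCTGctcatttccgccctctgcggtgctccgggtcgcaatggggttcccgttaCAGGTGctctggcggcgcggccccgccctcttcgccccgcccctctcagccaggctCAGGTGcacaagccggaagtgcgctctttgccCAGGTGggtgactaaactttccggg
Gldc: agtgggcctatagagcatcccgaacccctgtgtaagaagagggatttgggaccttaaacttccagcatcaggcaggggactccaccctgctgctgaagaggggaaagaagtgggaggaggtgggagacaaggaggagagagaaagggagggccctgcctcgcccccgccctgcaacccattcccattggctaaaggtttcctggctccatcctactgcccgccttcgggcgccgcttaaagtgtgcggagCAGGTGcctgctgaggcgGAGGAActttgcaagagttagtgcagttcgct
CAGGTG on either strand was found in 40.9% of 176 promoters of genes lower at the 4-fold level, in 18.8% of 432 higher at that level, in 18.9% of 14638 promoters of tested genes and in 20% of all windows. The mean GC content was 59.6, 55.6, 57.3 and 53.6% in the same order. The GRHL-type letters AACCNGTT were found in 2.84, 2.08 and 2.01% of lower, higher and all windows. The shares of these letters were not tested. Windows for Grhl2, Ovol1 and Tmprss4 were not analysed here.

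The 6 samples of disseminated cells differed in how far epithelial genes were down. The mean over the luminal list was 2.37 to 2.81 in adenomas and 1.66, 1.03, 0.444, 2.11, 0.566 and 2.50 in replicates 1 to 6. Replicate 6 lay within the range of the adenomas, replicate 4 next to it, and replicates 3 and 5 farthest away. The mean over milk proteins was 3.31, 2.0, 0.737, 3.48, 0.930 and 3.52, lowest in the same 2 samples. The macrophage mean of every sample was above that of every adenoma (3.06 to 4.58 against 0.134 to 0.607), also in replicates 4 and 6. When the macrophage mean entered the fit as a covariate, 94 genes were called, 46 higher and 48 lower, and 0 macrophage, lysosomal, luminal or junction genes. The covariate is the mean of these same macrophage genes, so the loss of their calls follows in large part from how it was made. It also separates the groups, so covariate and group cannot be told apart in that fit.

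**Figure D5:**
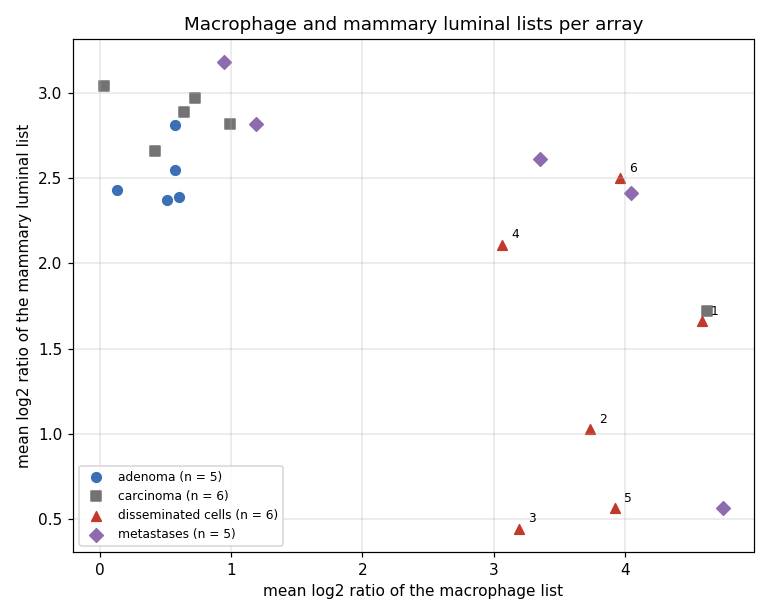
Mean log2 ratio of the macrophage list (horizontal) against that of the mammary luminal list (vertical) in the 22 progression arrays, colored by group, with disseminated samples numbered. Adenomas cluster at low macrophage and high luminal values, all disseminated samples lie at macrophage means of 3.06 to 4.58, and 1 carcinoma lies at 4.62.

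Genes of the epithelial-mesenchymal transition did not share a direction, with 4 of 19 higher and 4 lower (median -0.55), and 3 and 0 without between-array normalization. Zeb2, a repressor of epithelial genes that macrophages also express, ran from -1.93 to -1.36 in adenomas and from 2.21 to 4.64 in disseminated cells, a rise of 5.08 ± 0.92 (adjusted p = 0.00145). Vim, the intermediate filament vimentin of mesenchymal and blood cells, rose by 3.53 ± 0.72, with 1.22 on another probe. S100a4, a calcium-binding protein of fibroblasts and leukocytes, rose by 4.32 ± 0.93. The leukocyte lists moved with these genes, and their part in these changes was not tested. Of 15 S100 genes 3 were higher (median 0.15).

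A part of the interferon response list was lower in disseminated cells. Of 42 measured, 17 were called lower and 2 higher (median -1.06), and 7 were lower at an adjusted p below 0.01, 10 were lower without between-array normalization, 11 without adenoma replicate 1 and 5 with the macrophage covariate. Oas2, which makes the oligoadenylates that activate RNase L, had ratios of 3.96, 3.55, 4.02, 3.58 and 4.06 in adenomas and -0.23 to 1.62 (median 1.20) in disseminated cells. The groups lay far apart, at -2.87 ± 0.44 (adjusted p = 0.00044), and its other probe gave -0.62. Ifi44, an interferon-induced cytoplasmic protein, changed by -2.85 ± 0.64, with -0.94 on another probe. Tnfsf10, the death ligand TRAIL, changed by -1.79 ± 0.32, but without between-array normalization by -1.08 (adjusted p = 0.0702).

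Genes of growth and housekeeping functions were lower in part. Of 30 cell cycle genes 11 were called lower and 0 higher (median -0.95), and 7 with the deposited ratios or without disseminated replicate 5. Ccnb1, the cyclin of mitotic entry, ran from -0.85 to 0.47 in adenomas and from -3.19 to -1.37 in disseminated cells (change -2.01 ± 0.50, adjusted p = 0.00875), but the mean of its probes gave -1.05 (adjusted p = 0.0542). Cdc20, an activator of the anaphase-promoting complex, changed by -1.81 ± 0.49 and Top2a, the topoisomerase of dividing cells, by -1.14 ± 0.31, or by -0.96 without disseminated replicate 5, under the threshold, and its other probes gave -0.63 and -0.06. Of 32 clustered histone genes 18 were lower (median -1.31), with 11 lower without adenoma replicate 4 and 3 by the equal-variance test without moderation. H2ac13 and H2ac15, which share near-identical sequence, changed by -2.44 and -2.55, the former not called when adenomas and disseminated cells were fitted alone (adjusted p = 0.0517). Of 81 cytoplasmic ribosomal protein genes 17 were lower (median -0.62), among them Rpl41 at -1.81 ± 0.42 and Rpl36 at -1.88 ± 0.43, and of 78 oxidative phosphorylation genes 25 were lower (median -0.72), among them Ndufv3 at -1.88 ± 0.45, with -0.72 and -0.45 on other probes, and Cox7a1 at -1.87 ± 0.38. The ribosomal count was 8 and the oxidative count 10 with the deposited ratios, and they were 10 and 13 without disseminated replicate 5. Without between-array normalization the oxidative count was 12.

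Of 33 chromatin modifiers 4 were called lower and 0 higher, with a median of -0.15. The share called was 12.1%, against 5.82% of all genes called lower and 10.5% called in all. Kmt2a, Kmt2c, Kmt2e, Nsd2 and Nsd3, also in the list of 38, were not found under these names and are not counted. The paper prints array values under the names Mll1, Mll3, Mll5 and NSD2/Whsc1l1. Dnmt1, the maintenance DNA methyltransferase, ran from -0.38 to 0.00 in adenomas and from -2.25 to -0.89 in disseminated cells, a change of -1.29 ± 0.20 (adjusted p = 0.000524). Smyd2, a lysine methyltransferase, ran from -0.45 to -0.06 and from -3.74 to -1.0, a change of -2.07 ± 0.40 (adjusted p = 0.00207), with -0.68 on another probe.

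Among signaling lists, the Notch, Wnt and p53 lists had shares of calls in either direction near the 10.5% over all genes. The Notch and p53 calls were all higher, at 9.52% and 11.1% of members against 4.65% of all genes, and rest on 2 and 3 genes. Of 21 Notch pathway genes 2 were higher (median 0.19). Notch2, a receptor of the pathway, rose by 1.83 ± 0.32, with 1.28 and -0.10 on other probes, and Mfng, a glycosyltransferase that modifies Notch receptors, rose by 2.41 ± 0.59. Notch1 changed by -0.64 ± 0.22, below the fold threshold. Of 30 TGF-beta and BMP genes 5 were higher and 4 lower (median 0.12), with the ligands Tgfb1 at 1.89 ± 0.36 and Inhba at 3.48 ± 0.86 higher and Tgfb3 at -2.27 ± 0.59 lower. Of 36 Wnt genes 1 was higher and 2 lower (median -0.08). Of 26 growth factor and receptor genes 3 were higher and 3 lower (median -0.16), with the receptor genes Egfr at -1.90 ± 0.51 and Erbb2 at -1.28 ± 0.38 and the ligand Nrg1 at 1.49 ± 0.44. The Erbb2 call was lost without adenoma replicate 3 (-1.13, adjusted p = 0.0643) or disseminated replicate 5 (-1.09), and that of Nrg1 without between-array normalization. Another Erbb2 probe gave -0.27, those of Egfr ran from -1.45 to -0.06 and those of Nrg1 from 0.19 to 1.21. Of 27 p53 targets 3 were higher (median -0.12), among them Cdkn1a, the cell cycle inhibitor p21, at 1.40 ± 0.37, Fas, a death receptor, at 1.89 ± 0.36 (0.98 on another probe) and Pmaip1, the BH3 protein Noxa, at 2.41 ± 0.65. Of 24 hypoxia and glycolysis genes 6 were higher and 1 lower (median 0.27), including the lactate exporter Slc16a3 at 4.37 ± 0.44 and the collagen prolyl hydroxylase P4ha1 at 1.81 ± 0.35. Of 27 immediate early and heat shock genes 1 was higher and 4 lower (median -0.39), with Myc at -1.36 ± 0.34 and -1.27 and -0.37 on its other probes. Of 32 matrix genes 7 were higher and 4 lower (median -0.03, a sign that turned under 8 settings), with the gelatinase Mmp9 at 4.75 ± 0.74.

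Some genes that were higher than in adenoma were also higher than in the 5 metastases of the same fit. These groups lay on other slides scanned on another day, so the slides and the groups cannot be told apart. Ear10 averaged 3.45 in metastases and was 3.30 higher in disseminated cells (adjusted p = 6.4e-05), Csf3r was 2.66 higher (adjusted p = 0.00388), Plac8 4.11 (adjusted p = 0.00351), Tgfb1 2.27 (adjusted p = 0.00059) and Ppbp 2.44 (adjusted p = 0.000931). Clec4e, Lyz2 and Il6 were not called against metastases, at 1.44, 1.22 and 0.64 (adjusted p = 0.5, 0.577 and 0.665), while against the 6 carcinomas they were 5.66, 5.54 and 3.15 higher (adjusted p = 0.00189, 0.00205 and 0.00473). Cdkn1a was lower than in metastases, at a log2 change of -1.78 (adjusted p = 0.00358). Crb3 averaged 4.27 in carcinomas, 2.89 in metastases and changed by -2.23 from carcinomas to disseminated cells (adjusted p = 0.0129). The macrophage mean of carcinomas was 0.0331 to 0.989 except for replicate 6 at 4.62, and without that array 3136 genes were called between disseminated cells and adenoma.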

How the data were processed

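Gene expression was measured on 38 Agilent 2-color arrays, of which the 22 progression arrays (5 adenomas, 6 carcinomas, 6 disseminated cells, 5 metastases) were normalized together. The methods of the study give n = 5 per group, while 6 arrays of disseminated cells are labeled. The authors deposited scanner intensity values (mean signal and local background per spot, from Feature Extraction 10.7). A second deposited table holds log2 ratios, Cy5 sample over Cy3 reference, which they had background-corrected and normalized, with column medians of 0.025 to 0.038 here and correlations of 0.969 to 0.999 with the values below. The matrix served as an alternative, and 0 of its columns were left out.

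The software was limma 3.58.1, version 1.17.8 of data.table and statmod 1.5.0 under R 4.3.3. Normexp (offset 50) served for background, loess normalization within and quantile normalization between arrays followed, outlier spots were left out and each gene was read from its brightest probe on average. Of 41174 probes 23075 were named through accessions in the reference table and 18099 as the array files name them, giving 28784 gene names, 18445 with a reference symbol. Probe positions are those of the files (mm7). The 4 groups entered 1 limma model without covariates, with Benjamini-Hochberg adjusted p-values. Calls needed a value under 0.05 and a log2 change of 1 or more in size, or 2 or more for the 4-fold level. Errors are standard errors of the fit. A probe not well above background on any array of a group has only a bound. The sample channel gave one against the lowest signal well above background or the probe's own (after loess and Aquantile, open to dye bias), and the lower of this and the fold of the ratios is printed. The number of arrays limits the precision.

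Genes named were those the paper names for disseminated cells, the 10 largest rises and falls well above background on all 11 arrays without overlap, the 5 largest by bound, defining members of 41 gene lists and their 2 largest called changes each way; a few other list members were added after their values were seen. The members, lists and rule were chosen with earlier results of these data known. For the largest rises and falls, a call and no overlap were part of the rule. Their separation between the groups therefore follows from how they were chosen. Checked on simulated data for this comparison (28784 genes, 200 changed), the procedure recovered 78% of genes changed by 1.5 and 90% of those changed by 2, with 3 false calls, and called 0 where none was changed. The simulated noise was independent between genes and had the same spread in every group. The simulation could therefore not show false calls from unequal spread between groups, genes that move together or array position. Adenoma and disseminated samples with the same number did not deviate together (correlations -0.185 to 0.249 over genes). Alternatives covered background correction, normalization, the deposited ratios, dim probes, probe rules, slide and replicate blocks, samples in the fit, the test, thresholds, a covariate and each sample left out; leaving out carcinoma replicate 6 was added after the data were seen. RT-PCR, histology and blots were not analysed here.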

Additional observations from a re-analysis of the deposited data

Results flagged for a closer look

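An outlying sample within a group was looked for in 322 groups of values (each list mean and each named gene in adenomas and in disseminated cells), and 15 were flagged because 1 sample stood apart from the rest by a Dixon test, where chance flags about 1 in 20. Disseminated replicate 6 was lowest for Retnlg at 3.50 (the others 5.84 to 6.42), for Csf3r at 3.22 (4.74 to 5.15) and for Tppp3 at 3.07 (4.68 to 5.22). Replicate 4 was lowest for Lamp1 at 0.535 and highest for Cpsf4l at 3.87. Replicate 1 was highest for Ccl6 at 8.67, and replicate 5 for Ager at 0.85.

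Among adenomas, replicate 3 had the lowest macrophage mean at 0.134 (the others 0.509 to 0.607), the lowest mean of cytoplasmic ribosomal proteins at -0.0316 and the lowest Csf1r at -1.20. Replicate 4 had the highest means of alveolar macrophages at 1.22 and of platelets at -0.462, and the highest Pecam1 at 1.62. Siglecf was highest in replicate 5 at 0.376 and Clec7a lowest in replicate 2 at -0.609.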

How the results depend on the processing

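Of 106 called genes named in the text, 102 were called whichever sample was left out, 74 in every alternative but the macrophage covariate and 18 also with that covariate. Leaving out 1 sample gave 2153 to 3783 genes called, 1066 to 1585 higher, 1087 to 2198 lower and 731 to 1164 at the 4-fold level, lowest without disseminated replicate 5 and highest without replicate 4. The scanner's processed signals gave 1441 genes at the 4-fold level, and Aquantile or no normalization between arrays 1115 lower. The equal-variance test without moderation gave 1909 calls, 978 of them lower, and an adjusted p below 0.01 gave 1744, 808 higher and 936 lower. With the macrophage covariate there were 94 calls, 46 higher, 48 lower and 54 at the 4-fold level, and the signs of Ctss (-0.454), Socs3 (-0.293), Pf4 (-0.046), Krt8 (0.186), Epcam (0.126), Erbb2 (0.038), Stat3 (0.531) and Il6ra (0.041) turned. Stat3 also turned with the mean of its probes (0.034). Il6ra turned with a normexp offset of 0 (0.014), the deposited ratios (0.003), Aquantile or unscaled arrays (0.068), the replicate block (0.039) and without adenoma replicate 4 or 5 or disseminated replicate 1, 4 or 6 (-0.057 to 0.075 over single samples left out). The causes were not tested. With the replicate number as a block 2387 genes were called, 1127 higher, 1260 lower and 814 at the 4-fold level. The labels do not say whether samples with equal numbers are paired. Slide as a random block gave 3178 calls (correlation within slides 0.0602) and the filter on dim probes 3162 of 20989 genes. Of 40 called named genes with another probe, 37 had all probes with the same sign and 21 had a probe with a change under 1 or of opposite sign. Weak signal over background in adenomas limits folds to bounds for the genes given so.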
